A study of Mus musculus with 30 samples.

Results

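Ecel1, Sprr1a, Sez6l and their nearest relatives were followed as a set of 7 genes (Ecel1, Ece1, Ece2, Sprr1a, Sez6, Sez6l and Sez6l2) of 48795 in the gene count table, matched from Ensembl identifiers to symbols with GENCODE M21. Ecel1, Sez6l and Sprr1a had been picked because they were lower with AP-1 inhibition than with GFP in these same libraries, and the other 4 genes were added by family name. All differences between these 2 conditions are therefore given as a description, with no test. The libraries came from primary dorsal root ganglion (DRG) cultures, enriched for neurons, of C57/Bl6 wt mice. DN cultures received A-Fos, a dominant negative protein that binds Jun partners and keeps the AP-1 dimer off DNA, GFP cultures received GFP, and untransduced cultures received no virus. Both transgenes were carried by an adeno-associated virus of the PHP.S serotype, which favours sensory neurons, and cells of each mouse went into all 3 conditions. Each condition had 10 libraries in 3 culture sets, told apart by their titles: plain (replicates 1 to 3, with no day or date), 7DIV (replicates 4 to 6, 7 days in vitro) and dated (replicates 7 to 10). Libraries with the same replicate number are counted here as 1 culture, which assumes that they share a mouse, since no label names the mouse. The age and sex of the mice were not given, the cultures held other ganglion cells besides neurons, and the level of the transgenes was not analysed here.

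ECEL1 is a membrane protein of the M13 family of zinc metalloproteases, whose best known members are neprilysin and the endothelin-converting enzymes. It is made by neurons, it is needed in mice for motor axons to branch within muscle, and its gene is switched on in sensory and motor neurons after their axons are cut. ECE1 cleaves the inactive precursor of endothelin to the active peptide, and ECE2 is its relative that works at acidic pH. Sprr1a encodes a small proline-rich protein that is cross-linked into the cornified envelope of skin cells, and injured DRG neurons also make it and carry it into axons. SEZ6, SEZ6L and SEZ6L2 are neuronal membrane proteins with CUB and sushi domains outside the cell. The protease BACE1 sheds SEZ6 and SEZ6L from the cell surface.

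Depth over the 30 libraries was 10.7 M counts (M, 1000000) at the lowest and 39.1 M at the highest. Untransduced replicate 4 was the shallowest, with the next at 24.1 M. It also held 37657 CPM of Malat1, a nuclear RNA, while the other 29 libraries held 1875 to 8316 CPM. Levels here are CPM, counts per 1000000 scaled by TMM factors. All 7 genes were among the 18063 that passed the filter on low counts. Fos averaged 36.3 CPM ± 4.04 in DN, 37.6 ± 3.43 in GFP and 39.4 ± 6.41 in untransduced libraries (SD, n = 10 each), which gives no measure of the transgene. Sensory neuron markers were present in all libraries: their summed level was 2607 to 4396 CPM in DN, 2252 to 3926 CPM in GFP and 2513 to 4190 CPM in untransduced libraries, with 10 of 10 markers past the filter. In the plain set the sum was higher in DN, at 3169 to 4246 CPM, than in GFP (2582 to 2876 CPM) and untransduced libraries (2513 to 2968 CPM), with no overlap. In the other sets the conditions overlapped. Fibroblast markers were also abundant, with sums of 3316 to 6482 CPM in DN, 3273 to 5801 CPM in GFP and 2466 to 5375 CPM in untransduced libraries. These are bulk cultures, in which fewer cells of a type and less RNA per cell cannot be told apart.

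Ecel1 (ENSMUSG00000026247, GRCm38 chromosome 1, 87147655 to 87156521, minus strand) was lower in DN than in GFP in each of the 10 cultures. In the plain set it stood at 9.24, 8.04 and 5.97 CPM in DN libraries, against 69.2, 62.7 and 46.0 CPM in GFP and 62.1, 51.4 and 55.6 CPM in untransduced libraries. In the 7DIV set it had 15.9, 24.8 and 31.1 CPM in DN, against 64.1, 52.0 and 66.5 CPM in GFP and 96.0, 53.3 and 68.0 CPM in untransduced libraries. The DN values lay below every GFP and every untransduced value of their set in both sets. In the dated set the DN libraries had 20.6, 17.6, 24.9 and 10.5 CPM, the GFP libraries 77.3, 74.7, 58.6 and 30.3 CPM and the untransduced libraries 59.3, 57.3, 58.8 and 54.5 CPM. Here too the DN and GFP libraries did not overlap. Across sets they met at 1 point, with DN replicate 6 at 31.1 CPM above GFP replicate 10 at 30.3 CPM. The mean was 16.9 CPM ± 8.43 in DN, 60.2 ± 14.2 in GFP and 61.6 ± 13 in untransduced libraries (SD, n = 10 each). DN thus held 28.1% of the GFP mean, and the fitted log2 fold change of DN against GFP was -1.90 (SE 0.20).

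Sez6l (ENSMUSG00000058153, chromosome 5, 112419151 to 112577185, minus strand) had the largest fitted difference of the 7 over all sets together. Those of Sprr1a (-2.04, SE 0.45) and Ecel1 (-1.90, SE 0.20) were close. In the plain set that of Sprr1a was larger (-3.98, SE 0.78, against -3.10, SE 0.20), on 1, 4 and 3 DN reads. The order was not tested. The DN libraries of Sez6l had 18.2, 14.5 and 18.5 CPM in the plain set, against 146, 151 and 139 CPM in GFP and 139, 134 and 126 CPM in untransduced libraries. In the 7DIV set the DN libraries had 38.7, 47.5 and 49.1 CPM, against 138, 115 and 116 CPM in GFP and 88.5, 103 and 120 CPM in untransduced libraries. The lowest DN library of the 7DIV set was more than 2 times as high as every DN library of the plain set. In the dated set the DN libraries had 23.4, 21.5, 25.6 and 18.2 CPM, the GFP libraries 157, 144, 121 and 51.0 CPM and the untransduced libraries 133, 132, 127 and 116 CPM. No DN library reached any GFP library: the highest DN value was 49.1 CPM and the lowest GFP value 51.0 CPM, in replicate 10. Sez6l averaged 27.5 CPM ± 12.8 in DN, 128 ± 30.6 in GFP and 122 ± 15.6 in untransduced libraries (SD, n = 10 each), so DN held 21.5% of the GFP mean. Its log2 fold change was -2.24 (SE 0.21).

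Sprr1a (ENSMUSG00000050359, chromosome 3, 92483952 to 92485895, minus strand) was close to the limit of detection, with 836 reads over all 30 libraries. Its reads numbered 1, 4 and 3 in the plain DN libraries, against 62, 35 and 51 in GFP and 40, 30 and 24 in untransduced libraries. The 7DIV libraries held 17, 18 and 43 reads in DN, against 19, 49 and 138 in GFP and 15, 22 and 42 in untransduced cultures. Only in the plain set did the DN and GFP levels not overlap. In the dated set there were 4, 0, 4 and 12 reads in DN, against 36, 21, 22 and 8 in GFP and 37, 40, 23 and 16 in untransduced libraries. Replicate 8 of DN, with no read, is limited to 0.0900 CPM by a floor of 3 counts, which covers counting error only. In the plain set DN replicate 1, with 1 read, lay below its floor of 0.117 CPM. DN replicate 3, with 3 reads, lay at its floor of 0.125 CPM, so the plain difference is limited by the floor. In culture 10 the order was turned, at 0.37 CPM in DN and 0.28 CPM in GFP, so DN was lower in 9 of 10 cultures. The mean was 0.352 CPM ± 0.419 in DN, 1.36 ± 0.986 in GFP and 1.07 ± 0.321 in untransduced libraries (SD, n = 10 each), and the log2 fold change was -2.04 (SE 0.45).

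**Figure D1:**
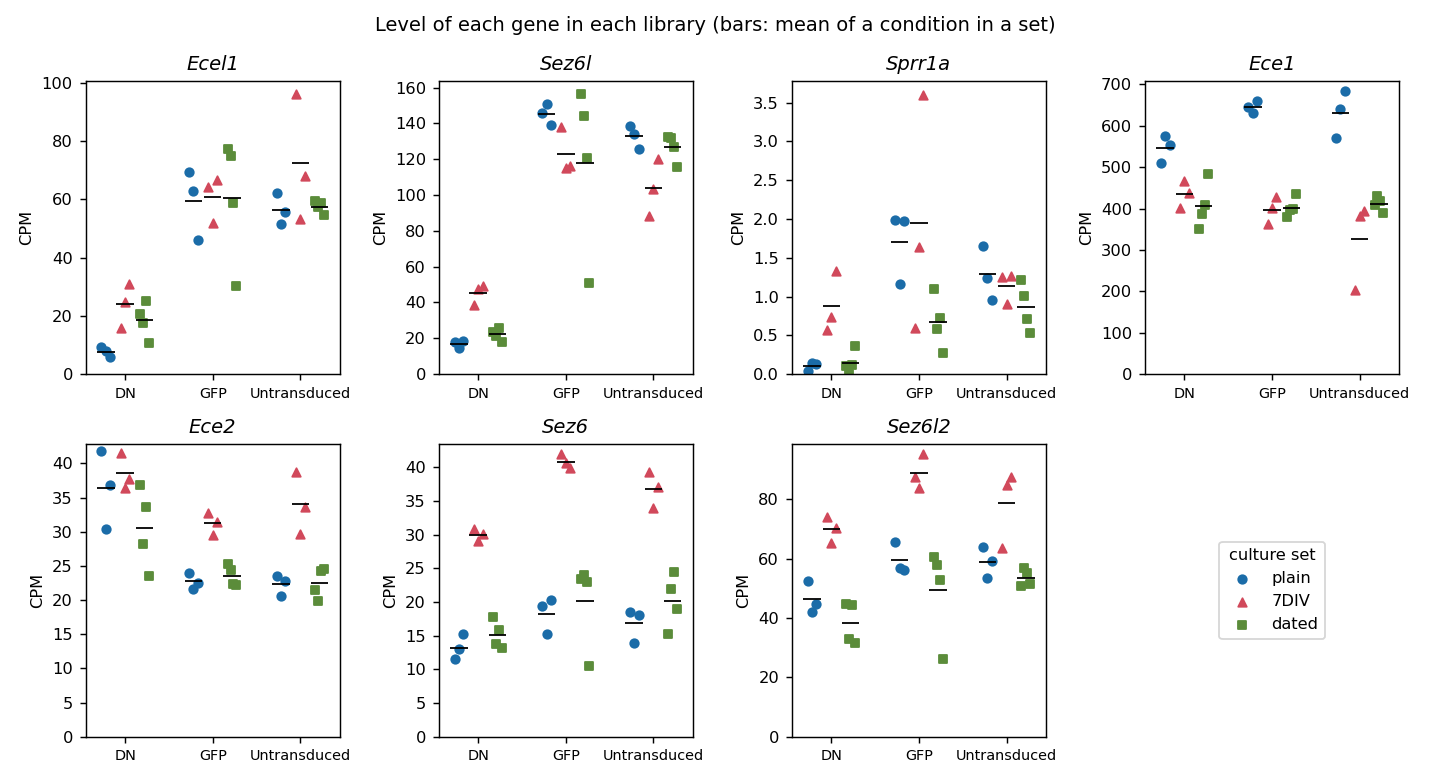
Level of each of the 7 genes in each library, in CPM on a linear axis that starts at 0, with DN, GFP and untransduced libraries from left to right, a symbol for each culture set and a bar at the mean of a condition in a set. The DN libraries of Ecel1 and Sez6l lie low in all sets, with the mean of 7DIV the highest of the DN sets, while Ece1 differs by set and Ece2 is higher in DN.

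The DNA just before the RefSeq start of these 3 genes is shown because AP-1 is the factor that A-Fos blocks and because the 3 genes were lower together. RefSeq promoters of GRCm38.p6 were available for 5 of the 7 members, with no entry for Sez6 and Sez6l2. Each line holds the 250 bases before the RefSeq start, read 5′ to 3′ on the gene's strand, with the AP-1 core site TGACTCA, or TGAGTCA when read on the other strand, in capitals. The windows are chr3:92485882-92486131 for Sprr1a, chr1:87156357-87156606 for Ecel1 and chr5:112577199-112577448 for Sez6l, all on the minus strand. The starts differ between annotations: 165 of the 250 bases of Ecel1 and 14 of those of Sprr1a lie inside the gene as GENCODE M21 places it, and 0 of those of Sez6l. The Ecel1 window thus holds 85 bases before the GENCODE start.
Sprr1a: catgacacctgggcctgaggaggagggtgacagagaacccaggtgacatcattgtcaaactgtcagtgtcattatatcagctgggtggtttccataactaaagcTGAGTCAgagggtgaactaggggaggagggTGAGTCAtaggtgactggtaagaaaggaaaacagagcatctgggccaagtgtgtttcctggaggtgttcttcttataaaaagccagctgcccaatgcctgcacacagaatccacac
Ecel1: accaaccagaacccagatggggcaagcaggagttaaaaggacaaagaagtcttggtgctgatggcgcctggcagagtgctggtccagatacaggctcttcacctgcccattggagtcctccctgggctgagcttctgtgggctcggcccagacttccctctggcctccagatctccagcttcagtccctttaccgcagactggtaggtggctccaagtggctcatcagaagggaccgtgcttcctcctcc
Sez6l: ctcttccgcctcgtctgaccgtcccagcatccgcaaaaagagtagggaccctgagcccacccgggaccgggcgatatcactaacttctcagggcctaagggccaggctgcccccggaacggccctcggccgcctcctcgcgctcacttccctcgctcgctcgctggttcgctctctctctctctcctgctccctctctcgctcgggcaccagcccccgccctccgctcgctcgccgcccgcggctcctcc
The Sprr1a window held 2 copies of TGAGTCA, with 139 and 109 bases between the match and the RefSeq start. Neither core form was found in the windows of Ecel1, Sez6l, Ece1 or Ece2, and TGACGTCA, the form bound by CREB and by some AP-1 dimers, was in none of the 8 windows of the 5 genes, of which Ece1 has 4. Over 32851 mouse promoters of the same length, 4.46% held the core site at least once, 0.167% held 2 or more copies and 1.55% held TGACGTCA. A match is a string of letters and not a measured binding site. The base composition of the windows differed, with 49.6% G and C in Sprr1a, 58.4% in Ecel1 and 69.6% in Sez6l.

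The relatives of Ecel1 differed less between DN and GFP. Ece1 (ENSMUSG00000057530, chromosome 4, 137862237 to 137965229, plus strand) had a lowest, median and highest level of 350, 452 and 576 CPM in DN, 363, 415 and 659 CPM in GFP and 204, 413 and 684 CPM in untransduced libraries. Over all sets the conditions overlapped almost entirely, and DN was lower than GFP in 5 of 10 cultures. Within the plain set they did not overlap, at 509 to 576 CPM in DN and 630 to 659 CPM in GFP, and the fit of that set alone gave -0.25 (SE 0.05). Over all sets its log2 fold change in DN against GFP was -0.02 (SE 0.09). Ece2 (ENSMUSG00000022842, chromosome 16, 20629828 to 20646485, plus strand) was higher in DN than in GFP in 10 of 10 cultures, with a lowest, median and highest level of 23.5, 36.6 and 41.8 CPM in DN, 21.6, 24.2 and 32.8 CPM in GFP and 19.9, 23.9 and 38.8 CPM in untransduced libraries. Its log2 fold change was 0.44 (SE 0.07). The count of Ece2 is uncertain, since 57.48% of its 5110 exon bases are also annotated to Gm49333 on the same strand.

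The relatives of Sez6l stood lower in DN too, by far less. Sez6 (ENSMUSG00000000632, chromosome 11, 77930800 to 77979048, plus strand) had a lowest, median and highest level of 11.5, 15.6 and 30.8 CPM in DN, 10.4, 23.2 and 41.9 CPM in GFP and 13.9, 20.4 and 39.4 CPM in untransduced libraries. Sez6l2 (ENSMUSG00000030683, chromosome 7, 126950563 to 126970606, plus strand) had 31.6, 44.7 and 74.0 CPM in DN, 26.2, 59.1 and 95.2 CPM in GFP and 50.7, 57.9 and 87.4 CPM in untransduced libraries. DN was below GFP in 9 of 10 cultures for each, with culture 10 as the exception for both. The log2 fold changes were -0.42 (SE 0.09) for Sez6 and -0.34 (SE 0.09) for Sez6l2. Of the Sez6l2 exon bases, 9.81% are shared with Gm21984 on the same strand.

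Counted by library values, 1 of the 7 members (Sez6l) had DN and GFP libraries that did not overlap over all sets, where 0.847% of all tested genes did, 0.194% with DN below GFP. Within sets the count was 6 of 7 in the plain set (29.4% of all genes), 5 of 7 in the 7DIV set (26.8%) and 2 of 7 in the dated set (9.11%). The 2 in the dated set were Ecel1 and Sez6l, which were also the 2 of 7 whose DN and untransduced libraries did not overlap over all sets (0.77% of all genes, 0.194% with DN below). These comparisons chose the members, so nothing is read from the counts.

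Per kilobase of exon, Ece1 was the most abundant member in each condition, at 86.3 CPM per kilobase ± 14.0 in DN, 89.4 ± 22.7 in GFP and 85.3 ± 26.7 in untransduced libraries (SD, n = 10 each). Its library values did not overlap those of the next gene. In GFP and in untransduced libraries Sez6l and Ecel1 came next, at 21.04 ± 5.04 and 17.2 ± 4.05 CPM per kilobase in GFP and 20.1 ± 2.57 and 17.6 ± 3.71 in untransduced libraries. These 2 genes overlapped each other and Sez6l2, at 15.3 ± 4.77 in GFP and 14.9 ± 3.14 in untransduced libraries. In DN the order behind Ece1 was Sez6l2 (11.9 ± 3.55), Ece2 (6.79 ± 1.14), Ecel1 (4.82 ± 2.41), Sez6l (4.53 ± 2.11) and Sez6 (3.30 ± 1.34), and each overlapped its neighbour. The order differed between culture sets. In plain DN libraries Sez6l (2.81), Sez6 (2.29) and Ecel1 (2.21) followed Ece2, and in 7DIV DN libraries Sez6l (7.43) came before Ecel1 (6.84). In 7DIV GFP libraries Sez6l2 (21.1) stood above Sez6l (20.3), and in 7DIV untransduced libraries the order was Ecel1 (20.7), Sez6l2 (18.7) and Sez6l (17.1). Sprr1a was the lowest in each condition, at 0.437 ± 0.520 in DN, 1.69 ± 1.22 in GFP and 1.33 ± 0.399 CPM per kilobase in untransduced libraries. For Ece2, dividing by the exon bases that no other gene shares gave 16.0 ± 2.68 CPM per kilobase in DN, 11.8 ± 1.90 in GFP and 11.9 ± 2.84 in untransduced libraries, so its place in the order depends on how shared bases were counted.

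DN was also set against untransduced cultures, a comparison that shares the DN libraries with the one that chose 3 members, so only the 4 relatives were tested. By edgeR's quasi-likelihood test with Benjamini-Hochberg adjustment over 18063 genes, 3 of these 4 passed the threshold of 0.05, where 13.2% of all genes did, 8.94% higher and 4.25% lower. Ece2 rose, with a log2 fold change of 0.44 (SE 0.07, adjusted p = 0.000160) and a higher level in DN in 9 of 10 cultures. Sez6 fell, at -0.35 (SE 0.09, adjusted p = 0.0116), and Sez6l2 fell, at -0.36 (SE 0.09, adjusted p = 0.00610), each lower in DN in 9 of 10 cultures. Ece1 did not pass (0.06, SE 0.09, approximate 95% interval -0.10 to 0.23, adjusted p = 0.685). For the 3 chosen genes the log2 fold changes were -1.96 for Ecel1, -2.22 for Sez6l and -1.96 for Sprr1a.

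Fitted within single sets, the DN against untransduced differences of Ece2 were 0.69 (plain), 0.19 (7DIV) and 0.41 (dated), those of Sez6 were -0.35, -0.29 and -0.42, and those of Sez6l2 were -0.36, -0.16 and -0.52 in the same order. All 3 passed in the plain set, where 24.4% of all genes did, and none passed in the dated set (4.41%) or the 7DIV set (0.0106%). Ece1 differed in sign between sets. It fell in the plain set (-0.22, SE 0.05, adjusted p = 0.00133), and in the 7DIV set its value was 0.46 (SE 0.20, adjusted p = 0.256). That set holds untransduced replicate 4, where Ece1 was at 204 CPM against 382 and 394 CPM in the other untransduced libraries of the set. Without that library 10.7% of all genes were called in the 7DIV set, and among them Ece1 (0.22, adjusted p = 0.0361) and Sez6l2 (-0.32, adjusted p = 0.0177).

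GFP against untransduced cultures asked whether carrying a vector went with a change. None of the 4 tested relatives passed (lowest adjusted p 0.998), and the background was 0% of all genes: edgeR called 0 of 18063 genes, with 373 at an unadjusted p under 0.05, and DESeq2 called 0 with 531. Ece1 had a log2 fold change of 0.09 with an approximate 95% interval of -0.08 to 0.25, Ece2 0.00 (-0.15 to 0.14), Sez6 0.07 (-0.12 to 0.25) and Sez6l2 -0.01 (-0.18 to 0.16). As a description, the values were -0.05 (-0.42 to 0.31) for Ecel1, 0.03 (-0.35 to 0.41) for Sez6l and 0.09 (-0.73 to 0.90) for Sprr1a.

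For Sez6l the fitted size of the difference between DN and GFP varied between culture sets, by a call that was not stable. Its log2 fold change was -3.10 (SE 0.20) in plain, -1.46 (SE 0.19) in 7DIV and -2.35 (SE 0.17) in dated cultures. Sez6l was picked for its lower level in DN than in GFP in these same libraries. How the difference varied over the 3 sets was not part of that rule. Earlier results of these data were known, so the test is not shown to be independent of the choice. EdgeR's joint interaction test gave an adjusted p of 0.0175, a call that 0.365% of all genes received. The 7DIV difference exceeded the plain one by 1.64 (SE 0.27), that is, it was closer to 0. Sez6l averaged 45.1 CPM ± 5.59 in 7DIV DN libraries and 17.0 ± 2.22 in plain DN libraries, and 123 ± 12.7 in 7DIV GFP libraries and 145 ± 6.13 in plain GFP libraries (SD, n = 3 each). This call was lost without culture 1, 2, 3, 5, 6 or 9 (adjusted p from 0.0546 to 0.135) and without the replicate block (0.0737).

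Ecel1 had the same order of sets, at -2.93 (SE 0.25) in plain, -1.34 (SE 0.23) in 7DIV and -1.70 (SE 0.20) in dated cultures, but its joint test did not pass (adjusted p = 0.0626). The test passed without culture 4 (adjusted p = 0.0326), without culture 10 (0.0246), without untransduced replicate 4 (0.0491), with no filter (1.76e-16) and by DESeq2 (0.000651). In 11 of 16 alternatives it still did not pass, with an adjusted p of up to 0.334. Ecel1 was picked in the same way as Sez6l. Sprr1a followed the same order with wide errors, at -3.98 (SE 0.78), -1.01 (SE 0.62) and -2.12 (SE 0.65), and an adjusted p of 0.417. For the relatives the joint test gave an adjusted p of 0.601 for Ece2, 0.691 for Ece1, 0.990 for Sez6 and 1.00 for Sez6l2. The log2 fold changes in plain, 7DIV and dated cultures were 0.67, 0.30 and 0.36 for Ece2, -0.24, 0.13 and 0.01 for Ece1, -0.46, -0.45 and -0.37 for Sez6 and -0.36, -0.34 and -0.33 for Sez6l2. The titles give days in vitro for the 7DIV set alone, so days in vitro and other differences between the sets cannot be told apart.

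**Figure D2:**
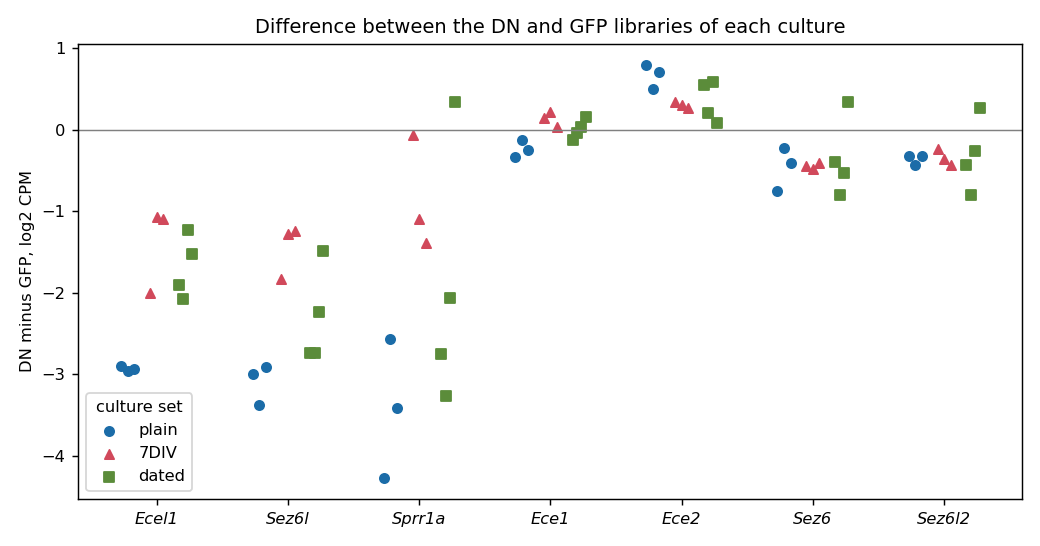
Difference between the DN and the GFP library of each culture, in log2 CPM, for the 7 genes, with a symbol for each culture set and a line at 0. Ecel1 and Sez6l lie below 0 in all 10 cultures, with the plain cultures lowest and the 7DIV and dated cultures overlapping, and Ece2 lies above 0 in all 10.

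The culture sets also differed in level when DN was left aside. Among the 10 GFP libraries, the joint test of culture set called 4 of the 7 members, where 43.3% of all genes were called, so the count is close to the background. Ece1 was lower in 7DIV than in plain cultures by 0.71 on the log2 scale (SE 0.08), at 397 CPM ± 32.6 in 7DIV and 645 ± 14.1 in plain GFP libraries (SD, n = 3 each), with an adjusted p of 1.06e-05 for the joint test. Sez6 was higher in 7DIV than in plain cultures, at 40.9 CPM ± 1.02 in 7DIV and 18.3 ± 2.69 in plain GFP libraries (log2 difference 1.15, SE 0.25, joint adjusted p = 0.00414). Ece2 was likewise higher in 7DIV (0.45, SE 0.09, joint adjusted p = 0.00146), and Sez6l2 was lower in dated than in 7DIV cultures (-0.86, SE 0.23, joint adjusted p = 0.0294). The call of Sez6l2 was lost without replicate 4, 5, 6 or 9 (adjusted p from 0.0502 to 0.0951) and with no filter (0.122).

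Ecel1 and Sez6l did not pass between sets of GFP libraries. Ecel1 averaged 60.9 CPM ± 7.77 in 7DIV, 60.2 ± 21.6 in dated and 59.3 ± 12.0 in plain GFP libraries (SD, n = 3, 4 and 3), with an adjusted p of 0.995. Its log2 difference between 7DIV and plain GFP libraries was 0.03 with an approximate 95% interval of -0.58 to 0.63. That of Sez6l was -0.25 (-0.90 to 0.40, joint adjusted p = 0.648). In the untransduced libraries without replicate 4, Sez6l did pass the joint test (adjusted p = 0.0359), where 9438 of 18063 genes did. Its log2 difference between 7DIV and plain libraries there was -0.25 (SE 0.08). Sprr1a averaged 1.95 CPM ± 1.52 in 7DIV, 0.668 ± 0.342 in dated and 1.71 ± 0.474 in plain GFP libraries, and its joint test did not pass (adjusted p = 0.0568). It passed without replicate 4 (0.0113), without replicate 7 (0.0387), with no filter (0.0355) and by DESeq2 (0.0205). In 11 of 15 alternatives it still did not pass, with an adjusted p of up to 0.383. Its log2 difference between 7DIV and plain GFP libraries ran from -0.62 to 0.62 when 1 library was left out.

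GFP replicate 10 was the lowest GFP library for 5 members. It held 30.3 CPM of Ecel1, 51.0 of Sez6l, 0.28 of Sprr1a, 10.4 of Sez6 and 26.2 of Sez6l2, while Ece1 was at 434 CPM and Ece2 at 22.2 CPM. Its summed sensory neuron markers, at 2252 CPM, were the lowest of the GFP libraries, and those of DN replicate 10, at 2607 CPM, the lowest of the DN libraries. Untransduced replicate 10 stood at 3608 CPM. The part of neuron content in these values was not tested. Leaving out culture 10 or any other culture kept the DN against GFP log2 fold change between -2.02 and -1.80 for Ecel1, between -2.38 and -2.14 for Sez6l and between -2.31 and -1.83 for Sprr1a.

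**Figure D3:**
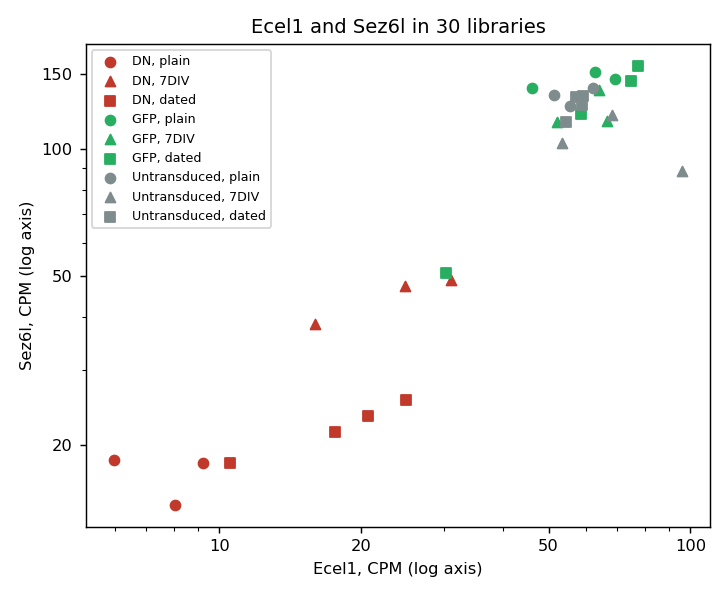
Level of Sez6l (vertical) against Ecel1 (horizontal) in each of the 30 libraries, in CPM on log axes, with a colour for each condition and a symbol for each culture set. DN libraries fill the lower left, and GFP replicate 10, at 30.3 CPM of Ecel1 and 51.0 CPM of Sez6l, lies beside DN replicate 6, at 31.1 and 49.1 CPM.

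The genes most like each chosen gene were taken by Pearson's r of log2 CPM over the 30 libraries, with no test, since conditions, cultures and depth are shared by all genes. For Ecel1 they were Prss12 (r 0.97), Cckbr (0.96), Serpinb1a (0.96) and Sox11 (0.95). For Sez6l they were Gm16334 (0.98), Serpinb1a (0.96), Flrt3 (0.96) and Draxin (0.96), and for Sprr1a, with its few reads, Gm10684 (0.88), Liph (0.88), Rasgrf2 (0.86) and Glyat (0.86). Prss12, which encodes the neuronal serine protease neurotrypsin, averaged 13.8 CPM ± 4.07 in DN, 30.2 ± 5.93 in GFP and 30.1 ± 2.65 in untransduced libraries (SD, n = 10 each). Serpinb1a, an inhibitor of serine proteases, averaged 31.1 CPM ± 16.1 in DN, 186 ± 41.3 in GFP and 178 ± 33.8 in untransduced libraries. The r was lower over the 20 GFP and untransduced libraries alone, at 0.78 for Ecel1 with Prss12, 0.36 for Ecel1 with Serpinb1a, 0.67 for Sez6l with Serpinb1a and 0.68 for Sprr1a with Gm10684.

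Genes that nerve injury induces in DRG neurons were counted from a list of 40, which leaves out the 7 members and partly overlaps a list used in earlier work on these libraries. Of 36 that passed the filter, 5 rose and 19 fell in DN against GFP, where 11.4% of all genes were called, 7.98% higher and 3.39% lower. The median log2 fold change was -0.20 in the list and 0.00 over all tested genes. Flrt3, a membrane protein that binds latrophilins and Unc5 receptors, fell to 54.8 CPM in DN, against 102 CPM in GFP (log2 fold change -0.90, SE 0.08, adjusted p = 1.44e-08). Atf3, a transcription factor that marks injured neurons, averaged 56.4 CPM in DN and 113 CPM in GFP (-0.98, SE 0.09, adjusted p = 4.60e-08). Sox11, a transcription factor of growing neurons, averaged 56.8 CPM in DN and 115 CPM in GFP (-1.02, SE 0.09, adjusted p = 4.77e-08). Sema6a, an axon guidance protein, averaged 93.1 CPM in DN and 157 CPM in GFP (-0.72, SE 0.07, adjusted p = 1.13e-07). These 4 were named for the smallest p in the list, and each was lower in DN in 10 of 10 cultures. The list was chosen with earlier results of these data known, so its count is not independent of them.

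**Figure D4:**
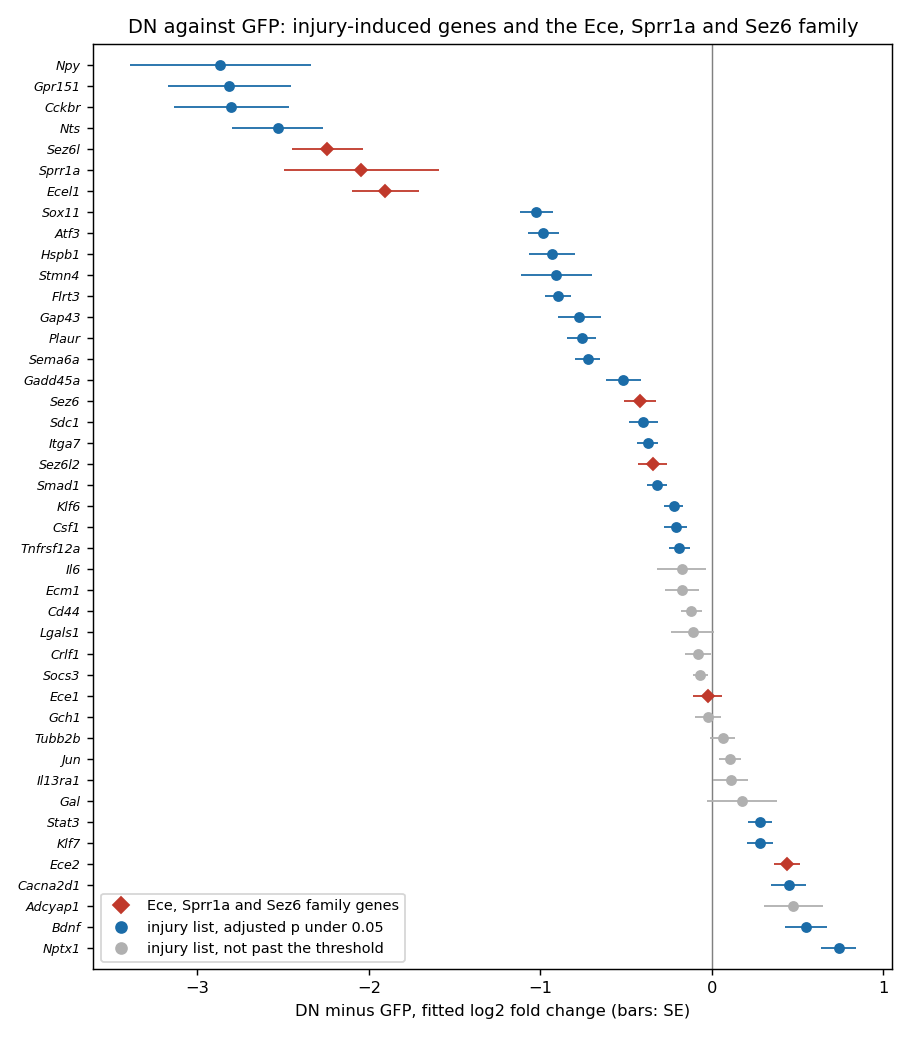
Fitted log2 fold change of DN against GFP, with bars of 1 SE, for the 36 tested injury-induced genes and the 7 genes described here (diamonds), ordered from lowest to highest. Sez6l, Sprr1a and Ecel1, picked for a lower level in DN, lie at -2.24, -2.04 and -1.90. Sez6, Sez6l2, Ece1 and Ece2 lie between -0.42 and 0.44. Sox11, named for its small p, lies at -1.02 and is not the lowest of the injury list. Cckbr, also in that list, averaged 1.89 CPM in DN and 12.2 CPM in GFP.

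Other genes of the members' pathways were counted in the same comparison. Of 9 M13 and endothelin genes, 5 passed the filter and 0 were called, with 11.4% called over all genes. Edn1, the endothelin 1 precursor, had a log2 fold change of -0.22 (SE 0.12, adjusted p = 0.291), and Ednrb, an endothelin receptor, one of -0.12 (SE 0.08, adjusted p = 0.456), with -0.33 in the plain set alone (adjusted p = 0.0138). Of 26 cornified envelope genes, 5 passed the filter and 0 were called. Among them were Evpl and Ppl, which encode envoplakin and periplakin, at -0.12 (SE 0.18, adjusted p = 0.771) and -0.20 (SE 0.28, adjusted p = 0.758). Keratinocyte markers were nearly absent, with 1 of 6 past the filter and summed levels of 0.482 to 1.29 CPM in DN, 0.965 to 2.20 CPM in GFP and 0.638 to 1.86 CPM in untransduced libraries. The 1 that passed, Krt10, averaged 0.461 CPM in DN and 0.903 CPM in GFP (-0.99, SE 0.31, adjusted p = 0.0369), and its part in the Sprr1a values was not tested. Its call was lost without culture 2, 3, 7, 8, 9 or 10 and with no filter (adjusted p from 0.0726 to 0.1005).

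Of 21 genes for BACE substrates, their proteases and complement control, all passed the filter, 3 rose and 1 fell, again with 11.4% called over all genes. Cd55, which protects cells from complement and is built of sushi domains, rose to 140 CPM in DN, against 75.2 CPM in GFP (log2 fold change 0.90, SE 0.07, adjusted p = 7.70e-09), and was higher in 10 of 10 cultures. Susd4, a complement inhibitor with sushi domains, rose by 0.36 (SE 0.11, adjusted p = 0.0255), and Nrg1, a growth factor that BACE1 releases, by 0.17 (SE 0.05, adjusted p = 0.0145). The call of Susd4 was lost without culture 1, 2, 3, 5 or 7 (adjusted p from 0.0544 to 0.114) and that of Nrg1 without culture 2, 3 or 8, with upper-quartile factors and with no filter (0.0557 to 0.129). Chl1, an adhesion molecule and BACE1 substrate, fell to 197 CPM in DN, against 246 CPM in GFP (-0.32, SE 0.06, adjusted p = 0.000496). Over these 4 lists together 28 genes were called, with 43 in the plain set alone (22.5% of all genes), 17 in the dated set alone (4.17%) and 0 in the 7DIV set alone (0.0529%). Once untransduced replicate 4 was left out, 25 were called in the 7DIV set (8.89%). Of the sensory neuron markers, 5 of 10 rose and 2 fell in DN against GFP over all sets. Over all genes 11.4% were called there, 7.98% higher and 3.39% lower. Tubb3 averaged 602 CPM in DN and 986 CPM in GFP (-0.72, SE 0.10, adjusted p = 5.96e-06), and Avil 470 CPM in DN and 283 CPM in GFP (0.74, SE 0.11, adjusted p = 2.00e-05). Among 6 satellite glia markers 1 was called, Glul, which fell (-0.41, SE 0.08, edgeR adjusted p = 0.000576), and 5 were not. Among 7 Schwann cell markers 1 was called, S100b, which fell (-0.66, SE 0.09, edgeR adjusted p = 1.55e-05), and 6 were not.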

How the data were processed

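RNA of 30 DRG cultures was extracted with the RNeasy Micro kit and made into libraries with a TruSeq kit, per the labels' protocols. The deposited gene table holds raw read counts per Ensembl gene, with no normalization by the authors: all values are whole numbers and totals differ between libraries. The submitters' processing notes name bcl2fastq 2.17, STAR, HTSeq and the GRCm38 (mm10) build. The sources used here name no counting settings, strandedness or annotation release. A second deposited table, of repeat intervals, was not used. GENCODE M21 gave symbols and GRCm38 positions for 48349 of 48795 identifiers, and RefSeq (GRCm38.p6) gave promoters.

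Counts were fitted in R 4.3.3 with edgeR 4.0.16: filterByExpr by condition (18063 of 33717 genes with any count), TMM factors and a robust quasi-likelihood model of all 30 libraries with condition and replicate number as a block. The interaction model added condition by culture set. The comparison of culture sets used the 10 GFP libraries. Tests were two-sided F tests with Benjamini-Hochberg adjustment over all tested genes and a threshold of 0.05. Each SE was taken as the ratio of the log2 fold change to the root of F, and an approximate 95% interval uses the normal quantile of that SE. Levels are CPM, counts per 1000000 by TMM-scaled totals, and log2 CPM carries a prior count of 2. The common biological coefficient of variation was 0.18. The fit was also run on simulated counts with known changes by condition and culture set. Those counts held no differences between replicates of a set beyond random spread, so that run did not try the block. Depth sets the precision of rare genes such as Sprr1a.

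The block rests on the series design, by which each mouse's culture was split between the conditions. That libraries with the same replicate number share a mouse is an assumption, since no label names the mouse. Same-number libraries correlated above 0.1 across genes in 8 of 30 pairs after condition and set were taken off (median r 0.063), and genes are not independent in that check. The members, lists, rule and tests were chosen with earlier results of these data known. Named genes were the 7 members, the 4 genes most like each of Ecel1, Sez6l and Sprr1a, and up to 4 genes of each list with the smallest p among those called in DN against GFP, or 2 where none was called. A protein comparison that had been planned was not made. Alternatives were median-ratio and upper-quartile scaling, no filter, each culture or untransduced replicate 4 left out, each set alone, no block and DESeq2 1.42.0.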

Additional observations from a re-analysis of the deposited data

Results flagged for a closer look

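Over the 7 genes, 42 groups of libraries were checked for a library far from the others, and chance flags about 1 in 20 groups. Ecel1 in untransduced replicate 4, at 96.0 CPM, lay far above the next of 10 untransduced libraries, at 68.0 CPM. That library is also the shallowest and the highest in Malat1, and the part of this in the Ecel1 value was not tested. Sprr1a in GFP replicate 6, at 3.60 CPM, lay far above the next of 10 GFP libraries, at 1.99 CPM. Sez6l in GFP replicate 10, at 51.0 CPM, lay far below the next of 10 GFP libraries, at 115 CPM. Sez6 in the same library, at 10.4 CPM, lay far below the next of the 4 dated GFP libraries, at 23.0 CPM. The summed sensory neuron markers were also lowest in that library among the GFP libraries, and their part was not tested.

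The DN minus GFP difference of Sez6l differed between culture sets by edgeR's joint interaction test (adjusted p = 0.0175), a call that 0.365% of all genes received. Sez6l was picked for its lower level in DN than in GFP in these same libraries, so the test is not shown to be independent of the choice. The call was not stable. It was lost without culture 1, 2, 3, 5, 6 or 9 (adjusted p from 0.0546 to 0.135) and without the replicate block (0.0737).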

How the results depend on the processing

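Ece1 in DN against untransduced cultures, at 0.06 and not called over all sets, passed the threshold in opposite directions, at -0.22 in the plain set alone and 0.22 in the 7DIV set without untransduced replicate 4. Over the 4 gene lists, 28 genes were called in DN against GFP, where 11.4% of all genes were, with 23 to 32 when 1 culture was left out. The count was 43 in the plain set alone (22.5% of all genes), 0 in the 7DIV set alone (0.0529%) and 17 in the dated set alone (4.17%). Of the 4 relatives tested in DN against untransduced cultures, 3 were called, where 13.2% of all genes were, with 3 for each culture left out. In single sets, where fewer libraries enter, 0 were called in the 7DIV set (0.0106% of all genes) and 0 in the dated set (4.41%). Without untransduced replicate 4, chosen after seeing the data, the 7DIV set alone gave 2, where 10.7% of all genes were called. In the test of the DN effect between sets 1 of the 7 members was called, where 66 of 18063 genes were. With 1 culture left out it was 0 to 2 members, and 0 to 196 of all genes. It was 2 with no filter (506 of 33717 genes) and 2 without untransduced replicate 4 (544 of 18142). By DESeq2 it was 2 (376 of 18063), and with no replicate block 0 (8 of 18063). The cause was not tested. The block changed no other call of a member. Among GFP libraries 4 of the 7 members were called between sets, where 43.3% of all genes were, with 3 to 5 when 1 library was left out. In GFP against untransduced cultures 0 of the 4 relatives were called under each alternative, and the main fit called 0 of 18063 genes. The median log2 fold change of the 7 members in DN against GFP was -0.42, and -0.49 to -0.38 when 1 culture was left out.

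Over all genes, DN against GFP called 2054, with 3239 without untransduced replicate 4, 4004 in the plain set alone, 751 in the dated set alone, 10 in the 7DIV set alone and 1709 there without untransduced replicate 4. The split was 1442 higher and 612 lower with TMM factors, 1250 and 730 with median-ratio factors and 1141 and 857 with upper-quartile factors. The interaction test called 66 genes, with 544 without untransduced replicate 4. The count of Sprr1a, at 0 to 138 reads a library, limits what can be said of it by set.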

Other observations

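Some genes of the members' pathways passed the test in DN against untransduced cultures and not in DN against GFP. Edn1, the endothelin 1 precursor that ECE1 processes, averaged 13.6 CPM ± 6.59 in DN, 15.5 ± 6.43 in GFP and 18.9 ± 7.58 in untransduced libraries (SD, n = 10 each). Its log2 fold change in DN against untransduced cultures was -0.53 (SE 0.12, edgeR adjusted p = 0.00345), and -0.22 against GFP (adjusted p = 0.291). Aplp2, a relative of the amyloid precursor protein, averaged 554 CPM ± 35.1 in DN, 493 ± 38.2 in GFP and 470 ± 86.4 in untransduced libraries, and rose by 0.25 (SE 0.08, edgeR adjusted p = 0.0291) against untransduced cultures. L1cam, an axonal adhesion molecule, averaged 423 CPM ± 71.0 in DN, 376 ± 57.4 in GFP and 356 ± 39.7 in untransduced libraries, and rose by 0.24 (SE 0.07, edgeR adjusted p = 0.0233). These 3 genes were named after their values were seen. The 2 comparisons share the DN libraries, and the difference between them, which is GFP against untransduced, called no gene.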
